A study of Mus musculus with 45 samples.

Results

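The Myc, Max and Mxd network is a group of transcription factors that compete for a common partner, Max. Its 9 genes were chosen by symbol, Myc, Mycn, Max, Mxd1, Mxd3, Mxd4, Mxi1, Mnt and Mga, and all 9 were found among the 33924 genes listed in each expression table. RNA was sequenced from D3 mouse embryonic stem cells (mESCs) grown without feeder cells, in 24 samples that form 8 groups of 3 biological replicates. In ΔPG cells the gene body and the promoter of the long non-coding RNA gene 5430416N02Rik were replaced by a PGK-puro cassette, and in ΔG cells the gene body alone was replaced by a GFP-IRES-Puro cassette. Each line was heterozygous or homozygous for its deletion, and each genotype was kept undifferentiated in DMSO (ES) or given 2 µM retinoic acid (RA) for 48 h. The 8 groups are therefore ΔPG heterozygous ES, ΔPG homozygous ES, ΔPG heterozygous RA, ΔPG homozygous RA, and the same 4 in ΔG. Every sample thus carries at least 1 deleted allele. Heterozygous samples came from clone He1 and homozygous samples from clone Ho1, so clone and genotype cannot be told apart.

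Max pairs with Myc or Mycn to activate genes at the sequence CACGTG, the E-box, and these genes feed ribosome production, metabolism and the cell cycle. It also pairs with Mxd1, Mxd3, Mxd4, Mxi1 and Mnt, which bring the SIN3 corepressor to the same sites, and with Mga, which belongs to a Polycomb complex. In mESCs, Myc proteins are known for their part in self-renewal, and the complex of Mga and Max for silencing germ cell genes.

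Expression is given as rlog values (regularized log, on the log2 scale), which the authors computed from read counts for the 12 ΔPG and the 12 ΔG samples apart. Differences were therefore taken within a line. Because rlog pulls low genes toward the mean, a difference understates the fold change of counts. Sequencing depth cannot be read from rlog values and is unknown. A gene was called when limma, fitted to every gene that varied in a table, gave a Benjamini-Hochberg adjusted p under 0.1 and the absolute log2 difference was over 0.5. All 9 network genes varied in both lines, and the mean rlog of each was at least 3. Each group entered 1 RA comparison, 1 genotype comparison and 1 interaction test, so these comparisons share samples.

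The genotype labels were checked on 5430416N02Rik itself (ENSMUSG00000084877.1). In ΔPG cells its rlog value was 4.62, 4.58 and 4.59 in heterozygous ES, 2.23, 2.21 and 2.46 in homozygous ES, 4.24, 3.80 and 4.44 in heterozygous RA and 2.66, 2.12 and 2.28 in homozygous RA samples. In ΔG cells it was 5.58, 5.54 and 5.50, then 2.63, 2.77 and 2.85, then 5.64, 5.52 and 5.58, and 2.63, 3.08 and 2.77 in the same order of groups. Every homozygous sample lay below every heterozygous sample, as labelled.

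The state of the cells was read from marker genes. For 7 markers of mESCs (Pou5f1, Nanog, Sox2, Zfp42, Esrrb, Klf4 and Tdgf1), the summed level, as 2 to the power of the rlog value, was 12109, 12400 and 12108 in heterozygous ΔPG ES samples and 831, 843 and 806 after RA. In homozygous ΔPG cells the sums were 11212, 11189 and 11369 in ES and 852, 792 and 788 in RA samples. In ΔG cells they were 14533, 14461 and 14298 against 756, 796 and 789 in heterozygous, and 13646, 13607 and 13684 against 739, 799 and 700 in homozygous cells. All 7 mESC markers fell in each of the 4 RA comparisons. Of all genes, 13.6%, 11.3%, 11.7% and 12.1% were called lower in heterozygous ΔPG, homozygous ΔPG, heterozygous ΔG and homozygous ΔG cells. By rlog alone, with no correction for length here or in the other marker lists, Pou5f1 had the highest value of the 7 in 7 of the 8 groups, and Tdgf1 in heterozygous ΔG ES cells. Fewer cells of a type and less RNA per cell cannot be told apart in these bulk samples.

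Markers of other cell types also moved with RA. Of all genes, 18.0%, 16.5%, 17.7% and 17.0% were called higher in heterozygous ΔPG, homozygous ΔPG, heterozygous ΔG and homozygous ΔG cells. The marker counts with RA that follow are to be read beside these shares and the shares called lower given above. Among genes with a mean rlog of at least 3, larger shares were called, both higher and lower. All 5 primitive endoderm markers (Gata4, Gata6, Sox17, Sox7 and Dab2) rose in each RA comparison. Their summed level was 43.9, 45.7 and 54.2 in heterozygous ΔPG ES and 480, 500 and 467 in heterozygous ΔPG RA samples, and 43.5, 44.3 and 60.8 against 337, 333 and 333 in homozygous cells. In ΔG cells the sums were 43.1, 46.4 and 47.5 against 574, 564 and 605 in heterozygous and 40.1, 50.2 and 48.6 against 460, 442 and 438 in homozygous samples. Dab2 was the most abundant of the 5 in all 8 groups. Of 6 fibroblast markers (Col1a1, Col1a2, Col3a1, Dcn, Lum and Postn), which would also mark feeder cells, 5 rose in heterozygous and 6 in homozygous ΔPG cells, and 6 in heterozygous and 4 in homozygous ΔG cells, where 4 rose in each after quantile normalization. Their summed level was 39.9, 39.5 and 46.6 against 573, 594 and 592 in heterozygous ΔPG cells, and 40.3, 41.3 and 48.7 against 506, 527 and 528 in homozygous ΔPG cells. In ΔG cells it was 37.3, 43.7 and 42 against 765, 744 and 806 in heterozygous and 35.1, 40.5 and 39.2 against 449, 404 and 414 in homozygous samples. Col1a2 was most abundant in 7 groups, and Col3a1 in heterozygous ΔPG RA cells. Of 4 trophoblast markers (Cdx2, Eomes, Elf5 and Krt7), Krt7 rose in each RA comparison and Eomes fell in 3 of the 4, all but that of homozygous ΔG cells. After quantile normalization 1, 2, 1 and 1 trophoblast markers fell in heterozygous ΔPG, homozygous ΔPG, heterozygous ΔG and homozygous ΔG cells. The trophoblast sum lay between 34.2 and 50.1 in ES and between 53.8 and 93.4 in RA samples, with Eomes most abundant in ES and Krt7 in RA groups. Some markers also differed between genotypes. In homozygous ΔPG ES cells Pou5f1 was called lower (-0.52), as were 6.29% of all genes, and this call was lost with the trend of each sample with GC content removed. In homozygous ΔPG RA samples 1 mESC marker, 3 of the 5 primitive endoderm markers (median -0.50) and 1 fibroblast marker were lower, beside 0.605% of all genes, and the 3 became 2 after quantile normalization and with the GC trend removed. By the ΔPG interaction 1 mESC, 2 primitive endoderm and 1 fibroblast marker were lower, beside 7.19% of all genes, and the 2 became 3 after quantile normalization and 4 with the GC trend removed, where 1 trophoblast marker was lower too. In homozygous ΔG RA samples 1 primitive endoderm and 1 fibroblast marker were lower and 1 trophoblast marker higher, beside 1.46% and 0.676% of all genes, and the GC alternative had 2 primitive endoderm markers lower. By the ΔG interaction 1 primitive endoderm and 1 fibroblast marker were lower and 2 trophoblast markers higher, beside 1.18% and 1.19% of all genes, and the 2 became 1 after quantile normalization. None of these markers was listed at 0, which is no sign that each was expressed. The mean rlog value of Elf5 was below 0 in all 8 groups, at -1.20 in heterozygous ΔPG ES and -1.78 in heterozygous ΔG ES cells. In these 2 groups Lum was at 0.72 and 1.59 and Postn at 1.20 and 0.84. The part of these cell type markers in the results for the network was not tested.

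Levels of different genes were compared per length, as the mean rlog value minus the log2 of the exonic length in kb. In heterozygous ΔPG ES cells the order was Max (6.36), Mga (5.86), Mycn (5.44), Mxd3 (4.26), Myc (4.18), Mxi1 (3.94), Mnt (3.65), Mxd4 (3.17) and Mxd1 (2.76), and the samples of Mxd3 overlapped those of Myc, and Myc those of Mxi1. In heterozygous ΔPG RA cells it was Max (6.09), Mga (5.91), Mxd4 (5.80), Mycn (5.33), Myc (4.73), Mxi1 (4.12), Mxd3 (3.47), Mnt (3.35) and Mxd1 (2.86), and the samples of Mxd3 and Mnt overlapped. Mxd4 thus had rank 8 of the 9 genes in ES and rank 3 in RA samples. In homozygous ΔPG ES cells the order was Max (6.50), Mga (6.44), Mycn (5.08), Myc (3.99), Mxi1 (3.91), Mxd3 (3.79), Mnt (3.22), Mxd4 (2.92) and Mxd1 (2.56), where Max and Mga overlapped, as did Myc and Mxi1, Mxi1 and Mxd3, Mnt and Mxd4, and Mxd4 and Mxd1. In homozygous ΔPG RA cells it was Max (6.11), Mga (5.86), Mxd4 (5.78), Mycn (5.13), Myc (4.63), Mxi1 (3.94), Mxd3 (3.82), Mnt (3.50) and Mxd1 (2.63), with an overlap of Mxi1 and Mxd3. Mxd4 moved from rank 8 to rank 3 here too.

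The same measure per length in heterozygous ΔG ES cells ran from Mga (6.72), Max (6.53) and Mycn (5.26) through Myc (3.76), Mxd3 (3.69), Mxi1 (3.68) and Mnt (3.57) to Mxd1 (2.61) and Mxd4 (2.05), and each gene from Myc to Mnt overlapped the next. Homozygous ΔG ES cells had Mga (6.76), Max (6.37), Mycn (5.18), Mxi1 (3.95), Myc (3.94), Mxd3 (3.56), Mnt (3.31), Mxd1 (2.35) and Mxd4 (2.23), with overlaps of Mxi1 and Myc, Myc and Mxd3, Mxd3 and Mnt, and Mxd1 and Mxd4. Mxd4 was thus the lowest of the 9 genes per length in both ΔG ES groups. In heterozygous ΔG RA cells the order was Max (6.02), Mga (5.92), Mxd4 (5.62), Mycn (5.60), Myc (4.51), Mxi1 (4.13), Mxd3 (3.64), Mnt (3.37) and Mxd1 (2.55), where Max and Mga, Mxd4 and Mycn, and Mxd3 and Mnt overlapped. Homozygous ΔG RA cells had Mga (5.94), Max (5.93), Mxd4 (5.65), Mycn (5.48), Myc (4.75), Mxi1 (4.29), Mnt (3.69), Mxd3 (3.62) and Mxd1 (2.68), with overlaps of Mga and Max, Mxd4 and Mycn, and Mnt and Mxd3. In all 8 groups Max, Mga and Mycn were among the 4 highest genes per length.

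**Figure D1:**
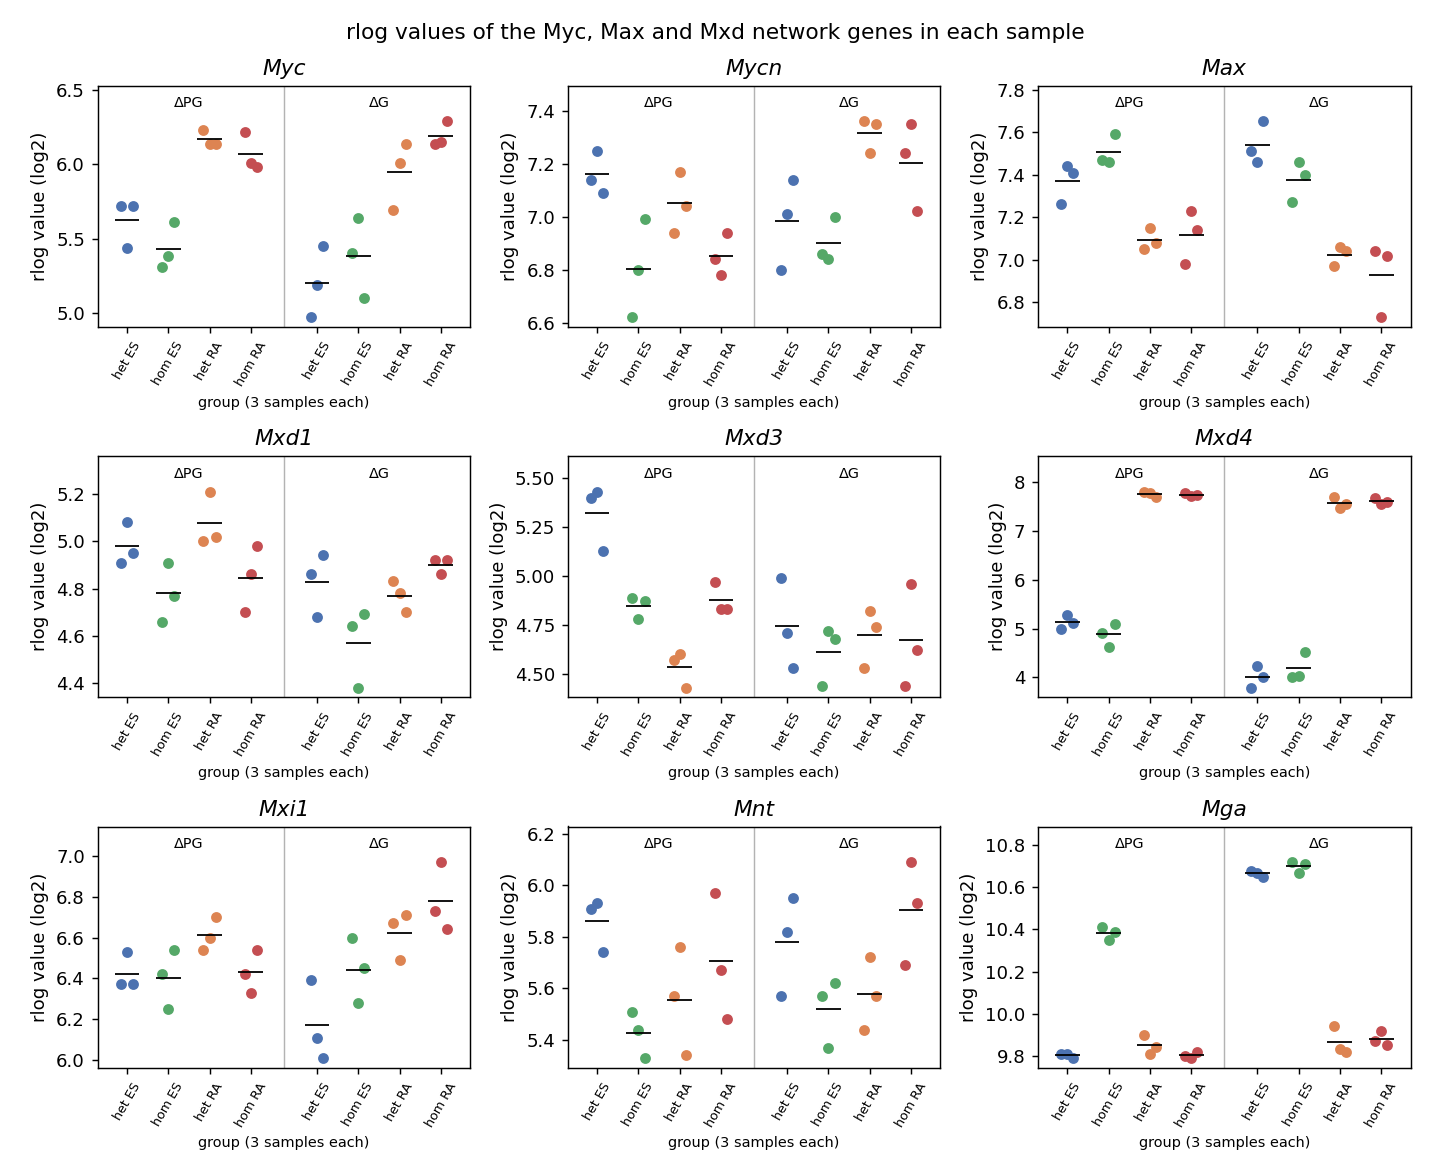
rlog values (log2 scale, vertical axes that differ between genes and do not start at 0) of the 9 network genes in each of the 24 samples, as points, with the mean of each group of 3 as a line. Mxd4 lies between 3.79 and 5.28 in all ES samples and between 7.47 and 7.80 in all RA samples.

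Retinoic acid, which makes mESCs differentiate, was compared with DMSO in each line and genotype. In heterozygous ΔPG cells 3 of the 9 network genes were called, 2 higher and 1 lower, where 31.6% of the 21979 genes tested were called, 18.0% higher and 13.6% lower. In homozygous ΔPG cells 3 were called, 2 higher and 1 lower, against 27.8% of all genes, 16.5% higher and 11.3% lower. In heterozygous ΔG cells 4 were called, 2 higher and 2 lower, against 29.5% of 22048 genes, 17.7% higher and 11.7% lower. In homozygous ΔG cells 3 were called, 2 higher and 1 lower, against 29.2%, 17.0% higher and 12.1% lower. Among genes with a mean rlog of at least 3, as all 9 have, larger shares were called. These were 5887 and 5068 of 11904 in heterozygous and homozygous ΔPG cells, and 5457 and 5569 of 11997 in heterozygous and homozygous ΔG cells. Counts of 3 or 4 of 9 were not read as a property of the network. Higher genes made up 57%, 59.4%, 60.2% and 58.4% of all calls in heterozygous ΔPG, homozygous ΔPG, heterozygous ΔG and homozygous ΔG cells, and 48.6%, 49%, 48% and 47.1% after quantile normalization. The 2 genes called higher were Myc and Mxd4 in each of the 4 comparisons.

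Myc (ENSMUSG00000022346.8, NCBIM37 chromosome 15 from 61816946 to 61821929, plus strand) encodes the activator after which the network is named. In ΔPG cells its rlog value was 5.72, 5.44 and 5.72 in heterozygous and 5.31, 5.38 and 5.61 in homozygous ES samples, and 6.23, 6.14 and 6.14 in heterozygous and 6.22, 6.01 and 5.98 in homozygous RA samples. The ΔG values were 4.97, 5.19 and 5.45, and 5.40, 5.64 and 5.10 in ES samples, and 5.69, 6.01 and 6.14, and 6.14, 6.15 and 6.29 in RA samples, heterozygous first. Every RA sample was above every ES sample of its line. By limma, Myc rose by 0.54 (SE, standard error, 0.0900, adjusted p = 0.00145) in heterozygous and 0.64 (SE 0.111, adjusted p = 0.000562) in homozygous ΔPG cells on the log2 scale. The rise was 0.74 (SE 0.141, limma adjusted p = 0.000553) in heterozygous and 0.81 (SE 0.127, limma adjusted p = 2.93e-05) in homozygous ΔG cells. The response did not differ by a call between genotypes, with an interaction of 0.09 in the ΔPG line (adjusted p = 0.758 by limma) and 0.07 in the ΔG line (adjusted p = 0.894 by limma). Both ΔPG calls fell below the limit of 0.5 after quantile normalization, at 0.42 in heterozygous and 0.47 in homozygous cells. The heterozygous ΔPG call was also lost with the limits of adjusted p under 0.05 and 1.5-fold, and at 0.45 without heterozygous ES replicate 2.

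Mycn (ENSMUSG00000037169.8, chromosome 12 from 12942902 to 12948720, minus strand) encodes the related activator N-Myc. Its rlog value in ΔPG cells was 7.14, 7.25 and 7.09, and 6.62, 6.80 and 6.99 in ES samples, and 6.94, 7.17 and 7.04, and 6.84, 6.78 and 6.94 in RA samples, heterozygous before homozygous. The ΔG values of Mycn were 6.80, 7.01 and 7.14, and 6.86, 6.84 and 7.00 in ES samples, and 7.36, 7.24 and 7.35, and 7.24, 7.35 and 7.02 in RA samples. ES and RA samples of a genotype overlapped in ΔPG cells and did not overlap in ΔG cells. Mycn was not called in any RA comparison. Its log2 differences were -0.11 and 0.05 in heterozygous and homozygous ΔPG cells, and 0.33 (SE 0.0906, limma adjusted p = 0.00731) and 0.31 (limma adjusted p = 0.0118) in heterozygous and homozygous ΔG cells, below the limit of 0.5. Per length, Mycn lay above Myc in all 8 groups, and the samples of the 2 genes did not overlap.

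Max (ENSMUSG00000059436.5, chromosome 12 from 78038256 to 78063235, minus strand) encodes the shared partner. Its rlog value in ΔPG cells was 7.26, 7.44 and 7.41 in heterozygous and 7.47, 7.46 and 7.59 in homozygous ES samples, and 7.05, 7.15 and 7.08 in heterozygous and 6.98, 7.23 and 7.14 in homozygous RA samples. Max values in ΔG cells were 7.51, 7.46 and 7.65, and 7.27, 7.46 and 7.40 in ES samples, and 6.97, 7.06 and 7.04, and 7.04, 6.73 and 7.02 in RA samples. Every RA sample was below every ES sample of its line. The log2 difference passed both limits in heterozygous ΔG cells alone, at -0.52 (SE 0.0752, limma adjusted p = 5.90e-05). It was -0.27 (limma adjusted p = 0.00538) in heterozygous ΔPG, -0.39 (limma adjusted p = 0.00134) in homozygous ΔPG and -0.45 (limma adjusted p = 0.000608) in homozygous ΔG cells. The interaction for Max was 0.07 in the ΔG line (adjusted p = 0.873 by limma) and -0.11 in the ΔPG line (adjusted p = 0.496 by limma), so the call in 1 genotype is no sign of a difference between them. The ΔG call was lost with the limits of 0.05 and 1.5-fold, at -0.46 without heterozygous ES replicate 3 and at -0.49 without heterozygous RA replicate 1, while homozygous ΔG cells gained one, at -0.50, without homozygous RA replicate 1.

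Mxd4 (ENSMUSG00000037235.7, chromosome 5 from 34516536 to 34530369, minus strand) encodes a Max partner that represses through SIN3, and it changed most of the 9 genes. Across ΔPG samples the rlog value was 5.00, 5.28 and 5.12 in heterozygous and 4.91, 4.63 and 5.10 in homozygous ES samples, and 7.80, 7.77 and 7.70 in heterozygous and 7.77, 7.71 and 7.74 in homozygous RA samples. Mxd4 in ΔG cells was 3.79, 4.23 and 4.01, and 4.01, 4.03 and 4.52 in ES samples, and 7.70, 7.47 and 7.55, and 7.67, 7.55 and 7.59 in RA samples. RA samples were far above ES samples in both lines, and the genotypes overlapped within each treatment. On the log2 scale, Mxd4 rose by 2.62 (SE 0.0787, limma adjusted p = 1.57e-07) in heterozygous and 2.86 (SE 0.112, limma adjusted p = 2.79e-09) in homozygous ΔPG cells. ΔG cells had rises of 3.57 (SE 0.118, limma adjusted p = 2.41e-11) in heterozygous and 3.42 (SE 0.128, limma adjusted p = 1.49e-13) in homozygous cells. The interaction of genotype and RA was 0.24 in the ΔPG line (adjusted p = 0.308 by limma) and -0.14 in the ΔG line (adjusted p = 0.755 by limma). Mxd4 kept its call under every alternative tried in each RA comparison.

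The genes most like Mxd4 were sought by Pearson's r over the 12 samples of a table, among genes whose mean rlog was at least 3 and whose range was at least 1. In ΔPG cells, out of 5043 genes, they were Ccnd2 (r = 0.999), Mex3b (r = 0.998) and D8Ertd82e (r = 0.998), and in ΔG cells, out of 4441 genes, Hoxb2 (r = 0.998), Mapk3 (r = 0.997) and Ube2h (r = 0.997). These 12 samples fall into an ES and an RA cluster, so such r values describe the step between treatments. Mxd4 ranged over 3.17 on the log2 scale in ΔPG and 3.91 in ΔG cells. Apart from it, Mxd3 in ΔPG (1.01) and Myc in ΔG cells (1.32) had a range of at least 1. Genes most like Mxd3 in ΔPG cells were Cabp1 (r = 0.957), Pcyt2 (r = 0.936) and Spire2 (r = 0.930). For Myc in ΔG cells they were Wnt11 (r = 0.965), Cdc42bpb (r = 0.958) and Crtc1 (r = 0.952). All r values are over 12 samples and carry no p.

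Mxd3 (ENSMUSG00000021485.7, chromosome 13 from 55426529 to 55431119, minus strand, with Prelid1 on the opposite strand) encodes a Mxd protein best known from proliferating cells. In ΔPG cells its rlog value was 5.40, 5.43 and 5.13 in heterozygous ES, 4.89, 4.78 and 4.87 in homozygous ES, 4.57, 4.60 and 4.43 in heterozygous RA and 4.97, 4.83 and 4.83 in homozygous RA samples. Heterozygous ES samples were the highest and heterozygous RA samples the lowest, with homozygous samples of both treatments between them and overlapping each other. In heterozygous ΔPG cells Mxd3 fell with RA, at -0.79 on the log2 scale (SE 0.109, limma adjusted p = 0.000529). In homozygous ΔPG cells the log2 difference was 0.03 (limma adjusted p = 0.875), and it was -0.27 (adjusted p = 0.0565) after quantile normalization, where the heterozygous fall was -1.07. The responses differed between the genotypes by 0.82 (SE 0.148, limma adjusted p = 0.000814). The interaction was 0.52 with the trend of each sample with GC content removed (adjusted p = 0.0271, with a range of 0.000286 to 0.0271 over the alternatives) and kept its call under every alternative tried. In ΔG cells Mxd3 was 4.99, 4.71 and 4.53 in heterozygous ES, 4.44, 4.72 and 4.68 in homozygous ES, 4.53, 4.82 and 4.74 in heterozygous RA and 4.44, 4.96 and 4.62 in homozygous RA samples. All 4 ΔG groups overlapped, and the log2 differences with RA were -0.05 and 0.06, and -0.42 (adjusted p = 0.0721) and -0.32 (adjusted p = 0.192) after quantile normalization, heterozygous first.

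Mxd1 (ENSMUSG00000001156.7, chromosome 6 from 86597038 to 86619153, minus strand) and Mxi1 (ENSMUSG00000025025.7, chromosome 19 from 53384996 to 53450300, plus strand, with Gm10197 on the opposite strand) encode further SIN3-binding partners of Max, and neither was called in any comparison. Mxd1 ranged from 4.66 to 5.21 in ΔPG and from 4.38 to 4.94 in ΔG samples. Its log2 difference with RA lay between -0.06 and 0.33, the highest in homozygous ΔG cells (limma adjusted p = 0.0360). After quantile normalization all 4 were below 0, at -0.15, -0.23, -0.43 (adjusted p = 0.0108) and -0.03 (adjusted p = 0.842) in heterozygous ΔPG, homozygous ΔPG, heterozygous ΔG and homozygous ΔG cells, so no direction was read for Mxd1. Mxi1 ranged from 6.25 to 6.70 in ΔPG and from 6.01 to 6.97 in ΔG samples. For Mxi1 the log2 differences with RA were 0.19 (limma adjusted p = 0.0544) and 0.03 in heterozygous and homozygous ΔPG cells, and 0.45 (limma adjusted p = 0.00324) and 0.34 (limma adjusted p = 0.0149) in heterozygous and homozygous ΔG cells. In heterozygous ΔG cells Mxi1 passed both limits without heterozygous ES replicate 1 (0.56) and without heterozygous RA replicate 2 (0.52).

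Mnt (ENSMUSG00000000282.6, chromosome 11 from 74644422 to 74659227, plus strand) encodes a Max partner that is made in most tissues and opposes Myc through SIN3. In ΔPG cells its rlog value was 5.91, 5.93 and 5.74 in heterozygous ES, 5.51, 5.44 and 5.33 in homozygous ES, 5.57, 5.76 and 5.34 in heterozygous RA and 5.97, 5.67 and 5.48 in homozygous RA samples. Mnt in ΔG cells was 5.57, 5.82 and 5.95 in heterozygous ES, 5.57, 5.37 and 5.62 in homozygous ES, 5.44, 5.72 and 5.57 in heterozygous RA and 5.69, 6.09 and 5.93 in homozygous RA samples. ES and RA samples of a genotype overlapped except in homozygous ΔG cells, where all 3 RA samples were above all 3 ES samples. No RA comparison called Mnt. Its log2 difference was -0.30 (limma adjusted p = 0.0639) in heterozygous and 0.28 (limma adjusted p = 0.102) in homozygous ΔPG cells, and -0.20 in heterozygous and 0.39 (limma adjusted p = 0.0132) in homozygous ΔG cells. After quantile normalization the ΔPG values were -0.46 and 0.08, and with the GC trend removed they were -0.04 and 0.10, heterozygous first. The ΔG values were -0.43 and 0.19 after quantile normalization and -0.40 (adjusted p = 0.00516) and 0.16 with the GC trend removed. The responses differed between genotypes in both lines, by 0.59 in the ΔPG line (SE 0.183, adjusted p = 0.0304 by limma) and 0.59 in the ΔG line (SE 0.172, adjusted p = 0.0528 by limma). The ΔPG interaction was 0.13 with the GC trend removed (adjusted p = 0.636, with a range of 0.00764 to 0.636 over the alternatives), 0.48 without heterozygous RA replicate 3 and 0.45 without homozygous RA replicate 1, and not called in these 3. The ΔG interaction lost its call with the limits of 0.05 and 1.5-fold and without heterozygous ES replicate 2 (0.57), heterozygous ES replicate 3 (0.51), homozygous ES replicate 2 (0.52), heterozygous RA replicate 1 (0.52), homozygous RA replicate 2 (0.50) or homozygous RA replicate 3 (0.58), with adjusted p between 0.0281 and 0.166 over all alternatives.

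Mga (ENSMUSG00000033943.9, chromosome 2 from 119722964 to 119795317, plus strand) encodes a large protein with a T-box DNA-binding domain besides the domain that binds Max. Across ΔPG samples the rlog value of Mga was 9.81, 9.81 and 9.79 in heterozygous ES, 10.41, 10.35 and 10.39 in homozygous ES, 9.90, 9.81 and 9.84 in heterozygous RA and 9.80, 9.79 and 9.82 in homozygous RA samples. In ΔG cells it was 10.68, 10.67 and 10.65, and 10.72, 10.67 and 10.71 in ES samples, and 9.94, 9.83 and 9.82, and 9.87, 9.92 and 9.85 in RA samples, heterozygous before homozygous. ES samples were above RA samples in 3 of the 4 pairs of groups, and heterozygous ΔPG ES samples were as low as RA samples on the deposited scale. Mga fell with RA in 3 groups, where the log2 difference was -0.58 (SE 0.0318, limma adjusted p = 4.27e-08) in homozygous ΔPG, -0.80 (SE 0.0401, limma adjusted p = 1.37e-09) in heterozygous ΔG and -0.82 (SE 0.0342, limma adjusted p = 7.50e-13) in homozygous ΔG cells. In heterozygous ΔPG cells the log2 difference was 0.04 (limma adjusted p = 0.236), but -0.29 (adjusted p = 5.38e-11) with the GC trend removed and 0.25 (adjusted p = 0.000744) after quantile normalization, so its direction depended on the processing. On the deposited scale the interaction in ΔPG cells was -0.62 (SE 0.0400, limma adjusted p = 9.10e-08). In ΔG cells the interaction was -0.02 (limma adjusted p = 0.894). The homozygous ΔPG fall was -0.34 after quantile normalization and -0.48 with the GC trend removed, and was not called under either or with the limits of 0.05 and 1.5-fold. With the GC trend removed the ΔPG interaction was -0.19 (adjusted p = 0.00116, the highest over the alternatives) and not called.

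**Figure D2:**
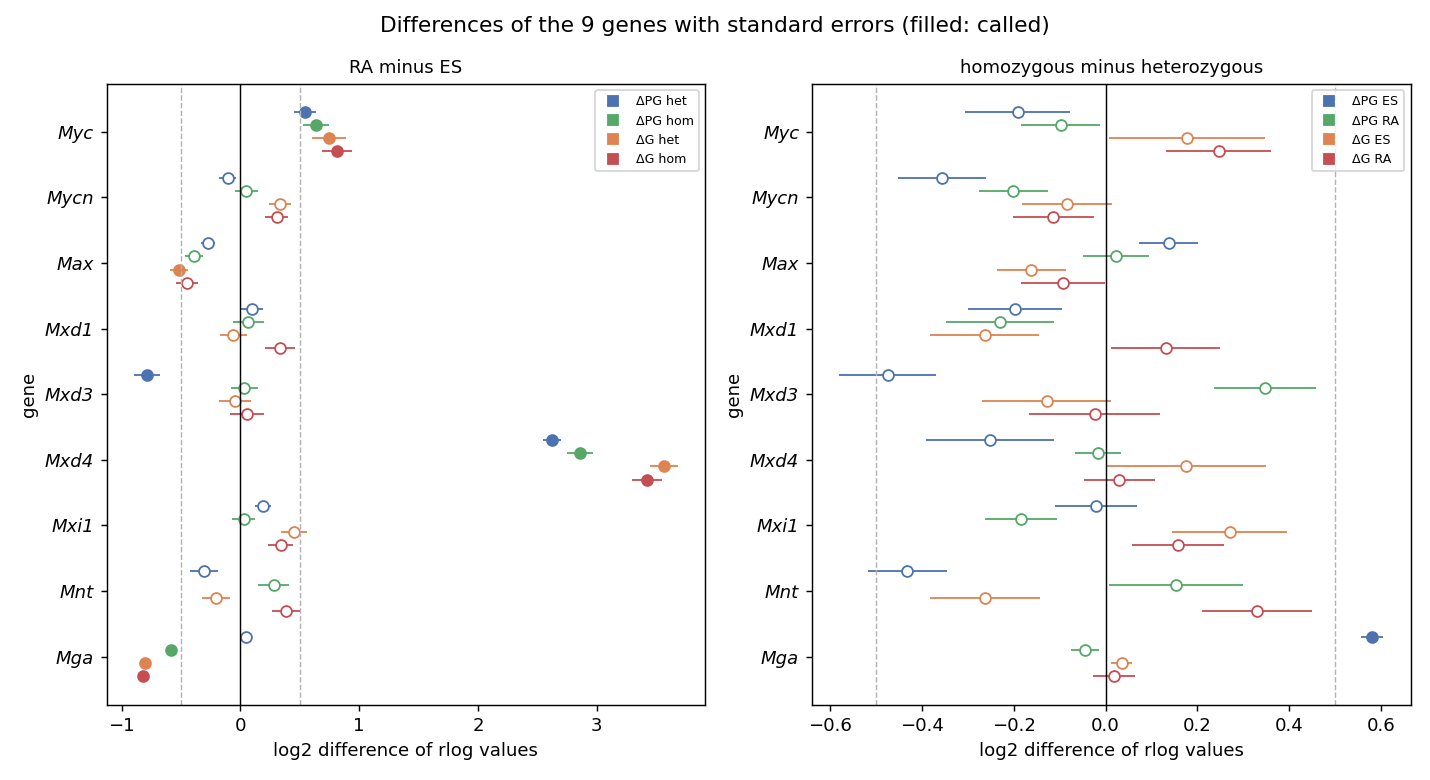
Log2 differences of rlog values (horizontal axes) of the 9 network genes, with standard errors as bars, for RA minus ES (left) and homozygous minus heterozygous (right); filled points passed both limits, and dashed lines mark the limit of 0.5. Mxd4 and Myc are filled in all 4 RA comparisons, and Mga in ΔPG ES cells is the 1 filled point for genotype.

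Homozygous were compared with heterozygous cells in each line and treatment. These are differences between 2 clones that also differ in genotype, and they cannot be assigned to the deletion. In ΔPG ES cells 1 of the 9 network genes was called, higher in homozygous cells, where 13.2% of all genes were called, 6.87% higher and 6.29% lower. Among genes with a mean rlog of at least 3, 2784 of 11904 were called, 1446 higher and 1338 lower. The network gene called was Mga, at 10.41, 10.35 and 10.39 in homozygous and 9.81, 9.81 and 9.79 in heterozygous ES samples, with no overlap. The log2 difference was 0.58 (SE 0.0244, limma adjusted p = 2.73e-06). It was 0.14 with the GC trend removed (adjusted p = 0.000132, with a range of 9.68e-18 to 0.000282 over the alternatives), no longer called, and was not called with the limits of 0.05 and 1.5-fold either. Mga has an exonic GC content of 42.0%, lower than that of all but 11.1% of the 11904 genes compared, whose median was 50%. For 3 further network genes, limma gave an adjusted p under 0.1, as for 36.1% of all genes, and a difference below the limit: Mxd3 at -0.47 (limma adjusted p = 0.00998), Mnt at -0.43 (limma adjusted p = 0.00577) and Mycn at -0.36 (limma adjusted p = 0.0234), and for each gene all 3 homozygous samples lay below all 3 heterozygous ones. Max did not overlap either, at 0.14 (limma adjusted p = 0.161). With Mga, 5 of the 9 did not overlap, beside 39.6% of all genes. With the GC trend removed, these differences were -0.17 for Mxd3, 0.02 for Mnt and -0.06 for Mycn. The exonic GC content of Mnt, 59.4%, was higher than that of 94.5% of genes. Without heterozygous ES replicate 3, Mxd3 passed both limits at -0.57.

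In ΔPG RA cells limma called 0 of the 9 network genes, and 3 had an unadjusted p under 0.05 (14.0% of all genes), where 0.846% of all genes were called, 0.241% higher and 0.605% lower. Limma also called 0 of 9 in ΔG ES cells, and 0 had an unadjusted p under 0.05 (15.4% of all genes), against 0.984% of all genes called, 0.354% higher and 0.630% lower. Higher genes made up 35.9% of the ΔG ES calls and 49.4% after quantile normalization. In ΔG RA cells limma called 0 of 9, and 2 had an unadjusted p under 0.05 (19.6% of all genes), against 2.14% of all genes called, 0.676% higher and 1.46% lower. Over these 3 comparisons the log2 differences of the network genes lay between -0.26 and 0.35, the lowest for Mxd1 and Mnt in ΔG ES cells and the highest for Mxd3 in ΔPG RA cells (limma adjusted p = 0.170). For the interaction of genotype and RA, 3 of the 9 were called in ΔPG cells, Mxd3 and Mnt higher and Mga lower, where 13.9% of all genes were called, 6.72% higher and 7.19% lower. The ΔG interaction was called for 1 of the 9, Mnt, higher, against 2.38% of all genes, 1.19% higher and 1.18% lower. Among genes with a mean rlog of at least 3, as all 9 have, 2976 of 11904 were called by the ΔPG interaction. By the ΔG interaction 539 of 11997 were.

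Genes known to be activated by Myc in growth were read as a list of 36, most of them for ribosome production, nucleotide synthesis or protein folding. With RA, 20 of the 36 fell and 1 rose in heterozygous ΔPG cells, and 22 fell and 1 rose in homozygous ΔPG cells. In ΔG cells 22 fell and 2 rose in heterozygous, and 19 fell and 2 rose in homozygous cells. Of all genes, 13.6%, 11.3%, 11.7% and 12.1% were called lower in heterozygous ΔPG, homozygous ΔPG, heterozygous ΔG and homozygous ΔG cells. In the same order, 18.0%, 16.5%, 17.7% and 17.0% were called higher. The counts with RA of this list and every list below are to be read beside these shares, which include genes of low rlog. Among genes with a mean rlog of at least 3, larger shares were called in every comparison and interaction, both higher and lower. With RA, 2706 and 2254 of 11904 fell in heterozygous and homozygous ΔPG cells, and 2398 and 2478 of 11997 in ΔG cells. In the order above, 3181, 2814, 3059 and 3091 rose. The median log2 difference of the list was -0.55, -0.57, -0.60 and -0.56 in the 4 comparisons in this order, beside 0.01, 0.01, 0.04 and 0.02 for all genes tested. The largest falls were those of Rrp9, a processing factor of ribosomal RNA (-1.92, -1.22 and -1.35 in heterozygous ΔPG, homozygous ΔPG and heterozygous ΔG cells), of the transferrin receptor Tfrc (-1.77 in homozygous ΔPG, -2.41 in heterozygous ΔG and -1.75 in homozygous ΔG cells) and of Shmt2 of the mitochondrial folate cycle (-1.75 in heterozygous ΔPG and -1.48 in homozygous ΔG cells). Ccnd2, the cyclin D2 gene, rose by 3.18, 3.26, 4.30 and 3.58, and was also the gene most like Mxd4 in ΔPG cells. Cad, of pyrimidine synthesis, rose in ΔG cells by 0.77 in heterozygous and 0.62 in homozygous cells. After quantile normalization 15, 11, 14 and 13 of the 36 fell and 1, 2, 2 and 3 rose, with medians of -0.34, -0.36, -0.44 and -0.36. Removing the GC trend left 20, 20, 23 and 21 lower and 1, 1, 2 and 1 higher.

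**Figure D3:**
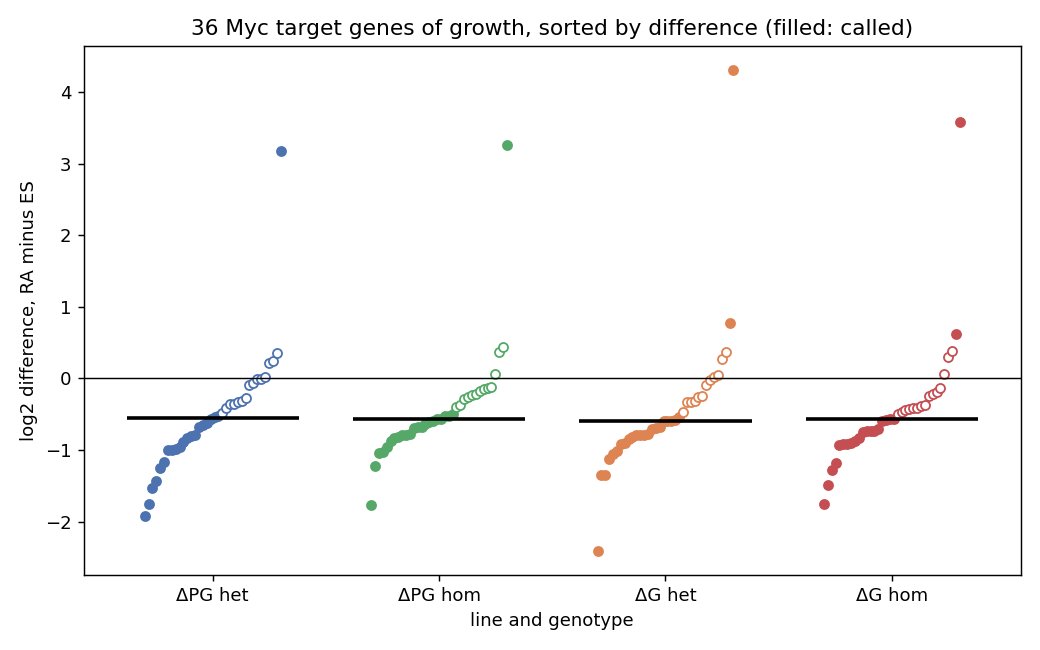
Log2 difference with RA (vertical axis) of each of the 36 Myc target genes of growth, sorted within each line and genotype, with the list's median as a line and filled points for genes that passed both limits. The medians lie between -0.60 and -0.55, and the highest point in each comparison is Ccnd2.

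Between genotypes, 8 of the 36 Myc targets were higher and 4 lower in homozygous ΔPG ES cells, beside 6.87% and 6.29% of all genes, with a median of -0.13 beside 0.00 for all genes. Npm1 (1.19) and Hspe1 (1.01) rose most and Cad (-0.86) and Rrp9 (-0.63) fell most. With the GC trend removed, 3 were higher and 0 lower. In ΔPG RA and ΔG ES cells limma called 0 of the 36, and 19 and 22 had an unadjusted p under 0.05, beside 14.0% and 15.4% of all genes. In homozygous ΔG RA cells Odc1 (0.56) and Tfrc (0.53) were higher and Ccnd2 (-0.78) lower, beside 0.676% and 1.46% of all genes. By the interaction, 6 of the 36 were higher and 5 lower in ΔPG cells (6.72% and 7.19% of all genes), 0 and 1 with the GC trend removed, and 1 higher and 1 lower in ΔG cells (1.19% and 1.18%).

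Of 5 genes known to be repressed by Myc, the CDK inhibitor genes Cdkn1a, Cdkn1b and Cdkn2b, Gadd45a and Ndrg1, 2 rose and 2 fell in each RA comparison. Cdkn2b rose by 2.03, 1.76, 1.04 and 1.20 and Gadd45a by 0.92, 0.96, 0.75 and 0.56 in heterozygous ΔPG, homozygous ΔPG, heterozygous ΔG and homozygous ΔG cells. In the same order, the log2 difference of Cdkn1a was -1.02, -2.49, -2.74 and -2.83 and that of Ndrg1 -1.04, -1.26, -1.58 and -0.81. Between genotypes, Cdkn1a was lower in homozygous ΔPG cells, with a log2 difference of -0.73 in ES and -2.20 in RA samples, and Ndrg1 in homozygous ΔG ES cells, with -1.18, where 6.29%, 0.605% and 0.630% of all genes were lower. By the ΔPG interaction 0 of the 5 were higher and 1 lower, beside 6.72% and 7.19% of all genes. With the GC trend removed these counts were 1 and 2. By the ΔG interaction 1 was higher and 0 lower, beside 1.19% and 1.18% of all genes. The list's median with RA was -0.50, -0.33, -0.30 and -0.25, beside 0.01, 0.01, 0.04 and 0.02 for all genes. After quantile normalization 2, 2, 1 and 1 rose and 2 fell in each, and with the GC trend removed 2, 2, 2 and 1 rose and 3, 2, 2 and 2 fell, with medians of -0.78, -0.25, -0.23 and -0.17.

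Among 11 coactivators of Myc, 6 fell and 0 rose with RA in heterozygous ΔPG, 2 fell and 1 rose in homozygous ΔPG, 3 fell and 1 rose in heterozygous ΔG and 3 fell and 0 rose in homozygous ΔG cells, all by limma. In this order of comparisons, 11, 8, 9 and 10 of the 11 had an unadjusted limma p under 0.05. The shares of all genes with such a p were 55.7%, 51.6%, 53.8% and 53.0%. Medians were -0.56, -0.23, -0.34 and -0.29, beside 0.01, 0.01, 0.04 and 0.02 for all genes. Without the GC trend 3, 3, 5 and 6 fell and 0, 1, 1 and 0 rose, with medians of -0.32, -0.31, -0.45 and -0.50, so the comparison with most falls was another one. Wdr5, a subunit of histone methyltransferase complexes that binds Myc, fell in each, with log2 differences of -1.20, -0.87, -1.18 and -1.11, and Trrap, the scaffold of histone acetyltransferases, rose by 0.57 in homozygous ΔPG and 0.59 in heterozygous ΔG cells. Of 7 genes for Myc turnover, 3 fell and 1 rose in heterozygous ΔPG, 1 fell and 2 rose in homozygous ΔPG, 1 fell and 3 rose in heterozygous ΔG and 1 fell and 2 rose in homozygous ΔG cells, with medians of 0.27, 0.29, 0.24 and 0.35. These medians were 0.42, 0.47, 0.57 and 0.42 after quantile normalization and 0.05, 0.35, 0.28 and 0.41 with the GC trend removed. Gsk3b, a kinase that marks Myc for degradation, rose in all 4 by 0.90, 0.86, 1.01 and 0.83, and the ubiquitin protease gene Usp28 fell, with log2 differences of -0.60, -0.88, -1.09 and -0.93. Fbxw7, the ubiquitin ligase subunit that takes up marked Myc, rose by 0.51 in homozygous ΔPG, 0.81 in heterozygous ΔG and 0.68 in homozygous ΔG cells.

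The corepressor of the Mxd proteins was read from 11 genes of the SIN3 complex, of which 4 fell and 2 rose with RA in heterozygous ΔPG cells and 3 fell and 1 rose in each of the other 3 comparisons. Their median log2 difference was -0.32, -0.30, -0.24 and -0.37, beside 0.01, 0.01, 0.04 and 0.02 for all genes. The counts moved with the processing: 3, 1, 1 and 3 fell after quantile normalization (medians -0.17, -0.12, -0.13 and -0.19), and 3, 2, 3 and 5 with the GC trend removed (medians -0.36, -0.34, -0.33 and -0.50). Sap30 fell in all 4, with log2 differences of -1.12, -1.15, -1.24 and -1.30, and the histone-binding subunit gene Rbbp7 rose by 1.03, 0.70, 1.10 and 1.10. Of 6 related bHLH-zipper genes, Mlxip, a partner of Mlx, rose in each, by 0.94 in heterozygous ΔPG, 1.24 in homozygous ΔPG and 1.17 in heterozygous ΔG cells, and the third Myc gene, Mycl1, rose by 0.66 in homozygous ΔPG, 1.23 in heterozygous ΔG and 0.80 in homozygous ΔG cells. In this list 1 rose and 1 fell in heterozygous ΔPG, 2 rose and 0 fell in homozygous ΔPG and 2 rose and 1 fell in each ΔG comparison, and 4 of the 6 had an unadjusted p under 0.05 in each of the 4 limma comparisons, beside 55.7%, 51.6%, 53.8% and 53.0% of all genes. Their medians were -0.16, 0.21, 0.24 and 0.28, and 0.01, 0.14, 0.12 and 0.14 with the GC trend removed. In homozygous minus heterozygous ΔPG ES cells, where limma called 6.87% of all genes higher and 6.29% lower, 1 coactivator was lower. There 1 SIN3 gene was higher and 1 lower, and 1 related gene was lower. By the ΔPG interaction, beside 6.72% of all genes higher and 7.19% lower, 2 coactivators and 2 related genes were higher. Of the SIN3 genes, 1 was higher and 1 lower by this interaction. Without the GC trend none of these counts was kept, and 1 coactivator was lower by the interaction.

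Mga acts in the Polycomb complex PRC1.6, whose 10 other genes read here include Wdr5. With RA, 3 rose and 2 fell in heterozygous ΔPG, 2 rose and 3 fell in homozygous ΔPG, 3 rose and 2 fell in heterozygous ΔG and 2 rose and 3 fell in homozygous ΔG cells, with medians of 0.08, -0.14, -0.04 and -0.01, beside 0.01, 0.01, 0.04 and 0.02 for all genes. The medians were 0.15, -0.03, 0.10 and 0.02 after quantile normalization and -0.08, -0.04, 0.05 and 0.10 with the GC trend removed. Yaf2 rose by 1.70, 1.39, 1.69 and 1.88, and L3mbtl2, which reads histone marks, fell, with log2 differences of -1.38, -0.85, -1.11 and -1.01. In homozygous ΔPG ES cells Rnf2, the ubiquitin ligase of the complex, was the 1 gene of the 10 called, higher by 1.05, beside the call of Mga, where 6.87% of all genes were higher and 6.29% lower. After quantile normalization 1 of the 10 was higher and 1 lower. The calls of Rnf2 and Mga were lost with the GC trend removed, where limma called 0 of the 10. For Rnf2 the ΔPG interaction was -0.97, in a list with 1 higher and 2 lower by the interaction, beside 6.72% and 7.19% of all genes, and 0 and 1 without the GC trend.

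Of 14 germ cell genes that the Mga and Max complex is known to repress in mESCs, 7 rose and 1 fell with RA in heterozygous ΔPG, 7 rose and 4 fell in homozygous ΔPG, 8 rose and 4 fell in heterozygous ΔG and 7 rose and 4 fell in homozygous ΔG cells. Medians were 0.48, 0.45, 0.76 and 0.58, beside 0.01, 0.01, 0.04 and 0.02 for all genes. After quantile normalization 7, 6, 7 and 7 rose and 3, 4, 4 and 4 fell, with medians of 0.37, 0.20, 0.53 and 0.36. Among the 13 fitted against GC content, 6, 8, 8 and 8 rose and 4, 3, 4 and 4 fell, with medians of 0.32, 0.59, 0.97 and 0.78, so the lower number of falls in heterozygous ΔPG cells was not kept. Ddx4, a germ cell RNA helicase gene, rose in all 4, by 2.18 and 1.75 in heterozygous and homozygous ΔPG and 2.38 in homozygous ΔG cells, and Hormad1, of meiotic chromosomes, fell, with log2 differences of -0.76, -2.05, -1.99 and -1.77. In homozygous ΔPG ES cells 4 of the 14 were higher and 0 lower, beside 6.87% and 6.29% of all genes, with a median of 0.32 beside 0.00, Sycp3 (1.25) and Hormad1 (1.11) most of all. After quantile normalization 6 were higher and 0 lower. With the GC trend removed limma called 0 of the 13 that could be fitted. In ΔPG RA, ΔG ES and ΔG RA cells limma called 0 of the 14 between genotypes, and 4, 6 and 4 had an unadjusted p under 0.05, beside 14.0%, 15.4% and 19.6% of all genes. By the ΔPG interaction 0 of the 14 were higher and 4 lower, beside 6.72% and 7.19% of all genes, again 0 and 4 after quantile normalization, and 0 and 0 with the GC trend removed.

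Promoter sequences of RefSeq (GRCm38.p6, 250 bases before to 50 after the start of a transcript) were matched for 8 of the 9 network genes, all but Myc. The E-box letters CACGTG, which read the same on both strands, were found in 3 of the 8, those of Max, Mxd4 and Mnt. They were found in 2349 of all 32851 promoters (7.15%). The first count is of genes and the second of single promoters, and Mxi1 had several promoters, none with these letters. In Max the letters CACGTG begin at base -3, counted from the start. The letters AGGTCA repeated after 5 bases, as retinoic acid receptors can bind, stood on either strand in 3 of all promoters (0.00913%), and AGTTCA repeated after 5 bases in 8 (0.0244%), and in none of the 8 network genes. The motifs do not overlap one another. The 250 bases before the start are shown for Mxd4 (chr5:34187711-34187960, minus strand), which rose most with RA, and for Mnt (chr11:74830674-74830923, plus strand), whose interaction was called in both lines by the main fit though not under every alternative, with CACGTG in capitals at bases -219 and -123.
Mxd4: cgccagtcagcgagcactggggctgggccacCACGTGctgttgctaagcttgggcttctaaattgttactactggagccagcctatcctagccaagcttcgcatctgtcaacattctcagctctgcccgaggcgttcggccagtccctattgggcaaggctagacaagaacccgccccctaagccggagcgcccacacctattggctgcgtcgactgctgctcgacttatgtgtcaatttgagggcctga
Mnt: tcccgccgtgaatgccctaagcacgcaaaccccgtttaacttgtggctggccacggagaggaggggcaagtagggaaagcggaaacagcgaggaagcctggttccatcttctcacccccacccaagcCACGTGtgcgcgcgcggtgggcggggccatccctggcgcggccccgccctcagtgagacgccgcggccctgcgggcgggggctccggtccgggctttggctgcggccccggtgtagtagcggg
A match of letters is a description and not a binding site.

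Circular chromosome conformation capture (4C-seq) of mESCs listed regions that are ligated to a bait at the promoter of 5430416N02Rik, in 2 replicates and without a score. Of the 9 network genes, 4 lay in a region of both replicates, Max, Mxd1, Mxd3 and Mga, beside 38.4% of 21887 protein-coding genes. All 4 lay wholly inside, beside 37.3% of genes. Myc, Mxi1 and Mnt lay in a region of replicate 1 alone, Mycn in one of replicate 2 alone, and Mxd4 in neither. A share of 4 in 9 was close to that of genes at large. Read as NCBIM37, the build named in the methods, the regions of both replicates held 3 of the 9, Mxd1, Mxd3 and Mga, beside 36.6% of 22367 protein-coding genes, while Max and Mxd4 lay in a region of replicate 1 alone. The regions span megabases, such as 119429206 to 121905005 on chromosome 2 (GRCm38) around Mga in replicate 1, and hold many other genes. Mxd4 lies on chromosome 5, as the bait does. Read depth behind these regions is unknown.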

How the data were processed

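Expression was taken from 24 RNA-seq samples and contacts from 2 replicates of 4C-seq. With TopHat2 2.1.0 the authors mapped reads to NCBI37/mm9. Next, the authors removed duplicates (Picard), counted by strand over GENCODE genes (HTSeq 0.6.0) and computed rlog values (DESeq2 1.14.1). The deposited RNA-seq values are rlog values on the log2 scale, and each table was read on its own. The deposited 4C-seq files hold other values, the positions of regions that the authors called significant in each replicate.

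Each comparison was fitted in limma 3.58.1 under R 4.3.3 (lmFit, eBayes with trend) from its own 6 samples, and the interaction of genotype and RA from all 12 of a table. Tests covered all 21979 (ΔPG) or 22048 (ΔG) genes that varied, with Benjamini-Hochberg adjustment over all of them and limits of 0.1 on the adjusted p and 0.5 on the absolute log2 difference. Depth is unknown, so no counting interval is given. Python 3.11.15 with pandas 2.3.3 and numpy 2.4.6 was used for levels, likeness, promoters and regions. Named were all 9 network genes, from each list at most the 2 called genes that rose most and the 2 that fell most in a comparison, the 3 genes most like a network gene with a range of at least 1, and 5430416N02Rik. Values of Cdkn1b and other list genes outside this rule enter as counts. Alternatives were limits of 0.05 and 1.5-fold, genes with a mean rlog of at least 3, quantile normalization, removal of each sample's lowess trend (span 0.667) with exonic GC content among genes with a mean rlog of at least 3, a replicate block, all 12 samples in the fit, each replicate left out, and whole genes inside 4C-seq regions. Reading these regions as NCBIM37 was an alternative chosen after seeing the data. The fit was tested on simulated data. The network genes and lists were chosen with earlier results of these data known.

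Of 680 region starts, 27 lay within 3 bp of a HindIII site of NCBIM37 as deposited, and 623 of 661 after the local offset between GRCm38 and NCBIM37, from genes within 1.5 Mb, was subtracted. The deposited positions run past the end of an NCBIM37 chromosome in 9 regions. Region positions were therefore read as GRCm38, against the methods of the study, which name NCBI37/mm9 for the 4C-seq reads. Which network genes lie in a region depends on this reading, under which 21887 protein-coding genes were placed. RIP-seq and Capture-C data were not analysed here, and no protein sequences were used here. The result of 1 further gene list in the design is not reported here.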

Additional observations from a re-analysis of the deposited data

Results flagged for a closer look

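The first 4 results are listed because the response to RA differed between genotypes in a test of the difference itself. In ΔPG cells the interaction was 0.8215 for Mxd3, 0.5852 for Mnt and -0.6247 for Mga, and in ΔG cells it was 0.5917 for Mnt, all on the log2 scale. Of these, Mxd3 alone was called under every alternative. With the GC trend removed the ΔPG interaction was 0.13 for Mnt (adjusted p = 0.636) and -0.19 for Mga, neither called, and the ΔG interaction of Mnt lost its call in 7 of 17 alternatives. For Mxd1, homozygous minus heterozygous RA samples differed by -0.2294 in ΔPG and 0.1304 in ΔG cells, neither called (limma adjusted p = 0.440 and 0.605). All homozygous samples lay below all heterozygous ones in the first line and above them in the second, as samples did not overlap for 18.8% and 21.8% of all genes, and the difference between the lines was not tested.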

How the results depend on the processing

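Over 90 results for single network genes, 1170 values were computed under alternatives. 1143 kept their side of the limits, 23 lost a call, 4 gained one and 0 reversed. Of the 18 called results, 10 were called under every alternative: Mxd4 in 4 comparisons, Myc and Mga each in both ΔG RA comparisons, and Mxd3 in heterozygous ΔPG RA minus ES and in the ΔPG interaction. Among values called under neither setting, 58 of 930 changed sign.

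Under the limits of 0.05 and 1.5-fold, which are stricter by construction, network genes called went from 1 to 0 in homozygous minus heterozygous ΔPG ES cells and from 1 to 0 in the ΔG interaction, and all genes called from 217 to 117 in ΔG ES, from 471 to 275 in ΔG RA and from 524 to 268 in the ΔG interaction. With the GC trend removed, network genes called were 0 in ΔPG ES and 1 in place of 3 in the ΔPG interaction, and all genes called 883 in place of 2893 and 1117 in place of 3056. That fit held only the 11904 genes with a mean rlog of at least 3, of which 2784 and 2976 were called with the trend left in. After quantile normalization 1 in place of 3 network genes was called in homozygous ΔPG RA minus ES. With the replicate block, all genes called were 112 in place of 186 in ΔPG RA and 44 in place of 217 in ΔG ES. The cause was not tested. Replicate numbers were treated as labels in the main fit. Correlations of the deviations of samples with the same number lay between -0.0255 and 0.0855. Whether samples with the same number share a batch was not tested.

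Leaving out 1 replicate gave 1 to 2 network genes and 2799 to 3012 genes called in ΔPG ES, 0 and 133 to 178 in ΔPG RA, 2 to 3 and 6921 to 6992 in heterozygous ΔPG RA minus ES, 3 and 6077 to 6181 in homozygous ΔPG RA minus ES, and 2 to 3 and 2938 to 3150 in the ΔPG interaction. In ΔG cells it gave 0 and 146 to 201 in ES, 0 and 471 to 532 in RA, 3 to 5 and 6515 to 6578 in heterozygous RA minus ES, 3 to 4 and 6426 to 6561 in homozygous RA minus ES, and 0 to 1 and 419 to 472 in the interaction. The 4C-seq count was 4 with both overlap rules, and 3 with the regions read as NCBIM37, an alternative chosen after seeing the data. Depth behind the values is unknown, so counting error could not be given, and 3 samples from 1 clone in each group limit every comparison.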
